A study of Arabidopsis thaliana with 9 samples.

Results

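Singlet oxygen marker genes are genes known to be induced when singlet oxygen forms in plastids, and 4 of them are described here: STZ (AT1G27730, also called ZAT10), AT3G28580, AT5G64870 and AT3G01830. They were chosen by name, by a rule that used no values, but with earlier results of these data known. For each, the array annotation lists a probe set with exactly 1 gene. WRKY53, another responsive gene with such a probe set, is described further below. Each of the 4 genes has 1 probe set, so they make up 4 of the 22746 probe sets tested. By their locus names STZ lies on chromosome 1, AT3G28580 and AT3G01830 on chromosome 3, and AT5G64870 on chromosome 5. Whether singlet oxygen was formed was not measured on these arrays, so the name describes what the genes are known for and not a state of these cells.

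Total RNA came from an Arabidopsis thaliana cell suspension culture grown at 24 ºC under continuous light of 50 microE/m2/s. The 9 Affymetrix ATH1 arrays fall into 3 groups of 3 replicates that the labels call biological: control cells at 50 microE/m2/s, cells kept for 1 h in the dark, and cells given high light of 1800 microE/m2/s for 30 min. Dark and high light treatments therefore differed in length as well as in light. No ecotype or genotype is named, and cultured cells lack the tissues of a leaf. The labels do not say whether the replicates were separate cultures, so p-values measure only the spread between these samples.

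Singlet oxygen is an excited form of oxygen that arises when excited chlorophyll passes its energy to oxygen, mainly at photosystem II, and strong light favours it. It is too short-lived to travel far, and the plastid proteins EXECUTER 1 and 2 take part in passing the signal on to nuclear genes. Genes that respond to it were first collected in the flu mutant, which builds up a chlorophyll precursor in the dark and releases singlet oxygen when returned to light. STZ encodes a zinc finger repressor of transcription and AT3G01830 a calmodulin-like calcium-binding protein. AT3G28580 encodes an AAA-type ATPase, and AT5G64870 a flotillin-like membrane protein.

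The arrays had similar distributions, with medians between 5.55 and 5.68 and lower quartiles between 4.05 and 4.13 on the log2 scale. High light replicates 2 and 3 stood apart on the first principal component (47.4% of the variance), with scores of 41.5 and 45.4, while high light replicate 1 had 4.32 and the other arrays lay between -28.5 and -0.847. Replicate 1 had the lowest score in each group. Replicates 1 to 3 had -26.2, -6.78 and -5.66 in control and -28.5, -23.2 and -0.847 in dark. As an index of RNA quality, control probe sets near the 3 prime end exceeded those near the 5 prime end by 1.58 ± 0.24 on control arrays, 1.71 ± 0.29 on dark arrays and 1.71 ± 0.09 on high light arrays (log2, SD, n = 3). Of the 10 photosynthetic marker genes listed, 2 had a named probe set, and PSAN (a photosystem I subunit) and PRK (a Calvin cycle kinase) lay between 7.87 and 10.1, above the median of every array. Both had lower means outside control. PSAN had log2 changes of -0.71 (SE 0.14, limma adjusted p = 0.0835) in high light and -0.53 (SE 0.14, adjusted p = 1) in dark. PRK had changes of -0.41 (SE 0.22, adjusted p = 0.697) and -0.30 (SE 0.22, adjusted p = 1). Their part in the changes of the 4 genes was not tested. The guard cell regulator FMA and the root hair expansin EXPA7, each the 1 measured of 3 listed markers, lay between 4.08 and 4.53. No listed marker of dividing, xylem or seed cells had a named probe set.

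In high light, STZ rose strongly and the other genes had higher means that did not pass the test over all probe sets. The means of all 4 genes ran in the order dark, control, high light from lowest to highest, an order found in 14.8% of all probe sets. The neighbours dark and control overlapped for each of the 4 genes. High light arrays lay wholly above the dark arrays for all 4 genes and wholly above the control arrays for STZ and AT3G01830. In bulk RNA, a change in each cell and a change in the share of cells with the transcript cannot be told apart.

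STZ represses transcription under salt, drought, cold and excess light. Its log2 values were 7.81, 8.76 and 8.996 on control replicates 1 to 3. On dark replicates 1 to 3 they were 7.10, 8.05 and 8.60, and on high light replicates 1 to 3 they were 11.21, 11.71 and 11.83. All high light arrays were thus far above all others, while dark and control arrays overlapped. In high light STZ lay above 98.3% to 99.3% of the probe sets of each array, against 75.2% to 87.9% in control and 66.0% to 84.7% in dark. The log2 change from control to high light was 3.06 (SE 0.42, limma adjusted p = 0.0174), an 8.35-fold rise. With the RNA quality index as a covariate, chosen after seeing the data, it was 2.75 (SE 0.17, adjusted p = 0.000654). Without the covariate it was the 35th highest change among all probe sets tested.

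**Figure D1:**
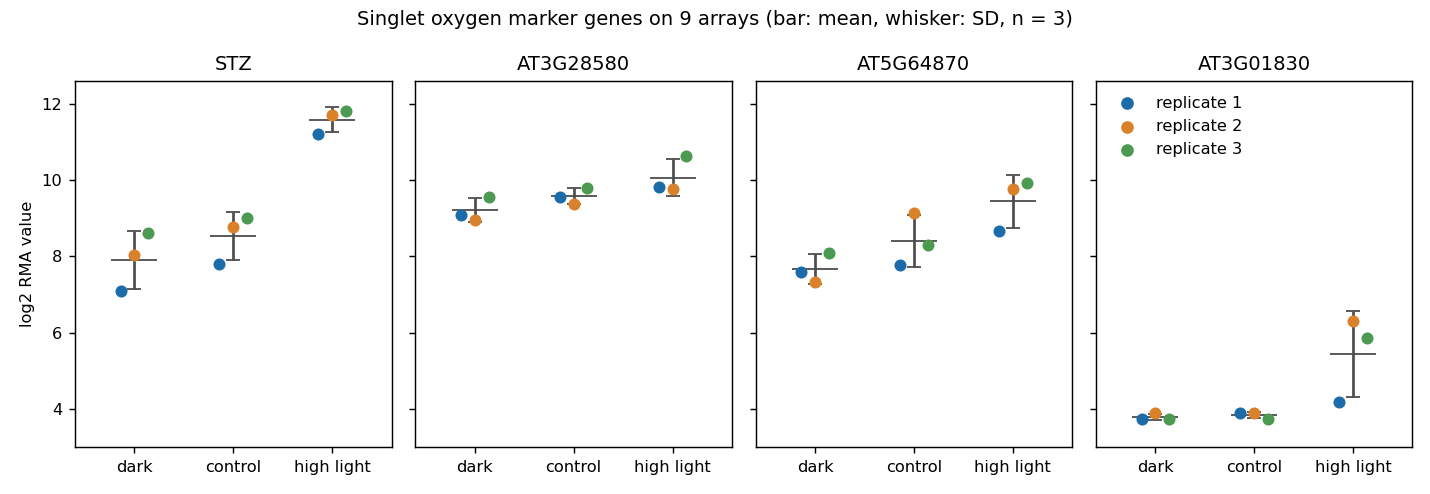
Log2 RMA values (vertical axis) of the 4 genes in dark, control and high light, with 1 point for each array, coloured by replicate number, the group mean as a bar and the SD as a whisker (n = 3). STZ is at 11.21 to 11.83 in high light and at most 8.996 elsewhere, and AT3G01830 in high light replicate 1 is at 4.17, far below the other 2 high light arrays.

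AT3G01830, the calmodulin-like gene, had log2 values of 3.88, 3.90 and 3.74 on control replicates 1 to 3 and of 3.74, 3.88 and 3.73 on dark replicates 1 to 3. These 6 values were under all 9 lower quartiles, and whether they exceed background was not tested. On high light replicates 1 to 3 it had 4.17, 6.31 and 5.86. High light replicate 1 was close to the control arrays and the other high light arrays were well above them. The log2 change from control was 1.61 (SE 0.45, 95% interval 0.57 to 2.64), with an adjusted p of 0.28 in limma. Without high light replicate 1 the change was 2.25 (SE 0.14) and the adjusted p was 0.000242, while it was 1.17 (adjusted p = 0.739) without high light replicate 2 and 1.40 (adjusted p = 0.845) without high light replicate 3.

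AT5G64870, the flotillin-like gene, had 7.79, 9.14 and 8.29 on control replicates 1 to 3 and 7.60, 7.33 and 8.10 on dark replicates 1 to 3. On high light replicates 1 to 3 it had 8.65, 9.76 and 9.92. High light replicate 1 was again the lowest of its group, and it lay below control replicate 2, so high light and control overlapped. The log2 change from control was 1.04 (SE 0.42, 95% interval 0.08 to 1.99, limma adjusted p = 0.524).

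AT3G28580, the AAA ATPase gene, varied least. It had 9.57, 9.38 and 9.79 on control replicates 1 to 3, 9.09, 8.97 and 9.57 on dark replicates 1 to 3, and 9.81, 9.76 and 10.63 on high light replicates 1 to 3. High light replicate 3 stood above the rest, and high light replicate 2 lay just below control replicate 3. The log2 change from control was 0.49 (SE 0.25, 95% interval -0.08 to 1.06, limma adjusted p = 0.672). Over the fits that each left out 1 array it ran from 0.21, without high light replicate 3, to 0.64.

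The first comparison asked how strong light changed these genes relative to growth light. With limma 1 of the 4 passed an adjusted p of 0.05, against 0.44% of all probe sets called higher. At an unadjusted p under 0.05, STZ, AT5G64870 and AT3G01830 were higher, 3 of 4 against 3.87% of all probe sets. The arrays of the groups did not overlap for 2 of 4, against 4.32% of all probe sets with high light wholly above control. The median log2 change of the 4 genes was 1.32, beside -0.03 over all probe sets.

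Same-numbered control and high light arrays deviated together over all probe sets, and on that ground they were taken as pairs. The labels give replicate numbers but state no pairing. High light exceeded control in all 3 pairs for each of the 4 genes, as it did for 11.4% of all probe sets. The differences were 3.40, 2.95 and 2.83 in pairs 1 to 3 for STZ and 0.87, 0.62 and 1.63 for AT5G64870. They were 0.29, 2.42 and 2.12 for AT3G01830 and 0.24, 0.38 and 0.84 for AT3G28580. A limma fit of all 9 arrays had the replicate as a block. It included the dark arrays, for which 1 of 3 pairs fell short in each comparison. In this fit 302 probe sets were called in place of 114, and 1.02% of all were called higher. STZ then had an SE of 0.15 and an adjusted p of 0.000205, while the adjusted p was 0.111 for AT3G28580, 0.126 for AT3G01830 and 0.213 for AT5G64870.

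The call for STZ in high light against control, made without the block, was lost without control replicate 1 (adjusted p = 0.0605), control replicate 2 (0.0545), high light replicate 2 (0.119) or high light replicate 3 (0.112). Its log2 change stayed between 2.70 and 3.30 over the 9 fits that each left out 1 array.

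**Figure D2:**
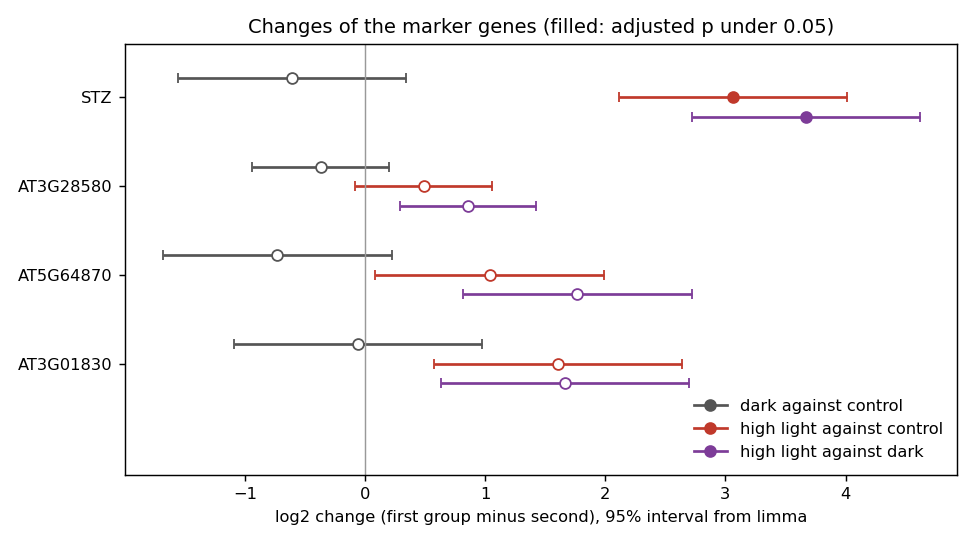
Log2 changes (horizontal axis) of the 4 genes in the 3 comparisons, with 95% intervals from limma; filled points passed an adjusted p of 0.05. STZ passed in both comparisons of high light, at 3.06 and 3.67, and all intervals of dark against control include 0.

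The second comparison asked whether 1 h without light changed the genes. All 4 had lower means in the dark than in control, and 0 passed, as did 0 of 22746 probe sets. Before adjustment, limma without the block gave 0 of the 4 a p under 0.05 with a lower value, against 1.77% of all probe sets. Same-numbered dark and control arrays were not accepted as pairs. Differences of dark minus control in replicates 1 to 3 were -0.71, -0.72 and -0.39 for STZ and -0.47, -0.42 and -0.22 for AT3G28580. They were -0.18, -1.82 and -0.19 for AT5G64870 and -0.14, -0.02 and -0.01 for AT3G01830. With the replicate as a block, the unadjusted p in limma was 0.005 for STZ, 0.0135 for AT3G28580, 0.0554 for AT5G64870 and 0.887 for AT3G01830. All 4 adjusted p-values were 0.714 or above. STZ had a log2 change of -0.61 (SE 0.42, 95% interval -1.56 to 0.34) and AT5G64870 one of -0.73 (SE 0.42, -1.68 to 0.22). AT3G28580 had -0.37 (SE 0.25, -0.94 to 0.20). AT3G01830, near the bottom of the scale in both groups, had -0.06 (SE 0.45, -1.09 to 0.98). The SE and interval of this gene pool the spread of all 3 groups, which was widest in high light. A fit of the dark and control arrays alone gave it an SE of 0.08. The median of the 4 was -0.49, beside 0.00 (-0.0040) over all probe sets. Each of these intervals includes 0. With 1 array left out, the change ran from -0.97 (without control replicate 1) to -0.20 (without dark replicate 1) for STZ, from -1.04 (without control replicate 1) to -0.36 (without control replicate 2) for AT5G64870 and from -0.55 (without dark replicate 3) to -0.25 (without dark replicate 2) for AT3G28580. With the RNA quality covariate it was -0.93 for STZ (SE 0.17, adjusted p = 0.44).

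The third comparison set high light against darkness, and it shares its high light arrays with the first. STZ rose 12.7-fold, by 3.67 on the log2 scale (SE 0.42, limma adjusted p = 0.00482), and was the 1 of 4 genes called, against 0.884% of all probe sets called higher. AT5G64870 had a log2 change of 1.77 (SE 0.42, adjusted p = 0.144), AT3G01830 one of 1.66 (SE 0.45, adjusted p = 0.244) and AT3G28580 one of 0.86 (SE 0.25, adjusted p = 0.294). All 4 were higher at an unadjusted p under 0.05, against 4.48% of all probe sets. The groups did not overlap for 4 of 4, against 4.99% of all probe sets with high light wholly above dark. The median of the 4 was 1.72, beside -0.04 over all probe sets.

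Leaving out high light replicate 1 brought AT5G64870 (log2 change 2.16, SE 0.38, adjusted p = 0.024) and AT3G01830 (2.30, SE 0.14, adjusted p = 0.000188) past the threshold in high light against dark. Without high light replicate 2 the values were 1.61 (adjusted p = 0.571) for AT5G64870 and 1.23 (0.721) for AT3G01830, and without high light replicate 3 they were 1.53 (0.576) and 1.46 (0.808). The STZ call in this comparison held in each of the 9 fits that left out 1 array (adjusted p 0.00465 to 0.0419). Over the 3 groups together, limma's moderated F test gave an adjusted p of 0.00942 for STZ and of 0.31 to 0.531 for the other 3, with 0.633% of all probe sets called. The STZ call over the 3 groups was lost without high light replicate 2 (adjusted p = 0.0983) or high light replicate 3 (0.0902).

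The 4 genes differed more between arrays of the same group than most probe sets did. The residual SD was 0.60 for STZ, 0.36 for AT3G28580, 0.61 for AT5G64870 and 0.66 for AT3G01830 on the log2 scale, beside a median of 0.15 over all probe sets. This put them above 98.4%, 91.7%, 98.4% and 98.8% of all probe sets. For AT3G01830 the spread lay almost wholly in high light, where the SD was 1.13, against 0.08 in control and 0.08 in dark (n = 3 each). For STZ it was larger in control (0.63) and dark (0.76) than in high light (0.33).

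**Figure D3:**
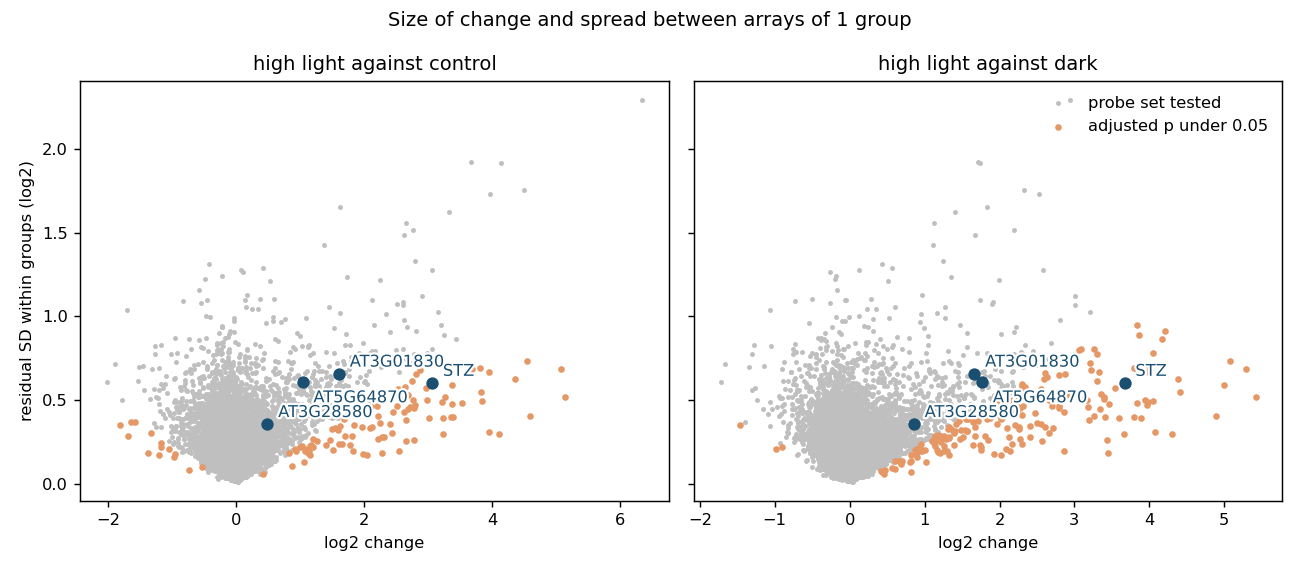
Log2 change (horizontal axis) and residual SD within groups (vertical axis) of all 22746 probe sets, with those called at an adjusted p under 0.05 in orange and the 4 genes in blue, for high light against control and against dark. The 4 genes lie above most probe sets in spread, and STZ is the 1 of them called in both panels.

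The genes also differed in which arrays were high. Within high light, replicate 1 was the lowest array for STZ, AT5G64870 and AT3G01830, and the same array had the lowest score of its group on the first principal component. Replicate 1 also had the lowest score in control and in dark. For AT3G28580 the lowest high light array was replicate 2. After the group means were taken out, the correlation between pairs of the 4 genes over the 9 arrays ran from 0.17 (AT3G28580 with AT3G01830) to 0.61 (AT5G64870 with AT3G01830), with a median of 0.40 over the 6 pairs. With the group means left in it ran from 0.64 to 0.86. These correlations describe 9 arrays that share groups, replicate numbers and normalisation, and no test was made of them.

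Among 13512 other probe sets with exactly 1 gene, those most like each of the 4 over the 9 arrays were named by Pearson correlation, as a description. For STZ they were AT5G52750 (0.983), AT2G32030 (0.979) and AT1G76600 (0.979), whose mean log2 values went from 5.83, 5.78 and 7.52 in control to 7.57, 9.03 and 10.49 in high light. For AT3G01830 they were AT1G05575 (0.993), AT5G46910 (0.987) and AT5G58680 (0.986). AT1G05575 had a mean of 4.02 in control, of 3.93 in dark and of 6.93 in high light, likewise close to the lower quartile outside high light. For AT5G64870 they were AT1G27100 (0.983), AT4G25390 (0.980) and AT5G58120 (0.980), with means in dark, control and high light of 6.87, 7.60 and 8.90 for AT5G58120. For AT3G28580 they were AT3G49510 (0.951), AT3G51330 (0.951) and AT3G51190 (0.946), all of them with means between 3.69 and 4.51 in each group. These means lay below or near the lower quartiles of the arrays, while AT3G28580 had means from 9.21 in dark to 10.07 in high light. From dark to high light the means went from 3.69 to 3.78 for AT3G49510, 3.81 to 4.05 for AT3G51330 and 4.34 to 4.51 for AT3G51190. The 4 genes shared no gene among these lists.

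Other genes of the singlet oxygen response were thinly measured. Of 10 further responsive genes listed, WRKY53, a regulator of senescence and defence, was the 1 with a named probe set. It had values between 6.24 and 7.82 in control, 5.28 and 5.92 in dark and 9.92 and 10.81 in high light. High light lay wholly above control and wholly above dark, as it did for 4.32% and 4.99% of all probe sets. WRKY53 rose by 3.38 against control (SE 0.41, limma adjusted p = 0.00924) and by 4.997 against dark (SE 0.41, adjusted p = 0.00113). Its log2 change from control to dark was -1.62 (SE 0.41, adjusted p = 1, unadjusted p = 0.00352). Of 8 signalling genes, EX1 (EXECUTER 1) was measured, with log2 changes of -0.16 (SE 0.07, adjusted p = 0.57) in high light and -0.21 (SE 0.07, adjusted p = 1) in dark against control. None of the 10 listed hydrogen peroxide and superoxide markers had a named probe set, so the 2 kinds of response could not be set side by side.

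Of 7 measured calmodulin-like genes, the family of AT3G01830, 2 rose and 0 fell in high light against control, against 0.44% of all probe sets called higher and 0.0615% called lower. CML37 rose by 3.27 (SE 0.36, limma adjusted p = 0.0067) and CML23 by 1.65 (SE 0.17, adjusted p = 0.00524), and both also rose against dark, by 3.39 and 2.30. The CML37 values in control (3.85 to 4.21) and dark (3.75 to 4.21) lay near the lower quartiles of the arrays and were not tested against background, so the size of its change depends on values close to the bottom of the scale. CML38 had a change of 3.06 (SE 0.87, adjusted p = 0.287) against control, and AT1G76640, CML41, CML42 and CML43 had values between -0.28 and 0.60. The SE of CML38 pools all 3 groups, and its SD was 1.99 in dark, 0.70 in control and 0.66 in high light. Its values were 5.99 to 7.39 in control and 9.03 to 10.18 in high light. High light lay wholly above control, as it did for 4.32% of all probe sets.

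Of the AAA ATPase genes related to AT3G28580, 5 of 8 were measured, all from the stretch of 11 neighbouring protein-coding genes from AT3G28510 to AT3G28610 that also holds AT3G28580. Limma called 0 of the 5 in each comparison, with 0 at an unadjusted p under 0.05, against shares over all probe sets in high light against control of 0.44% called higher and 3.87% higher before adjustment. Their values on all arrays lay between 3.37 and 4.34, below or near the lower quartile, and their log2 changes in high light against control between -0.08 and 0.11. Of 10 zinc finger genes related to STZ, AT2G28200 and AT3G53600 were measured, and 0 of 2 were called, against the same 0.44%. AT3G53600 had a log2 change of 0.47 (SE 0.13, adjusted p = 0.276) against control and of 0.58 (SE 0.13, adjusted p = 0.127) against dark, from means of 3.68 in control and 3.57 in dark, both under all 9 lower quartiles. Its unadjusted p-values in limma were 0.00653 and 0.00202. In these comparisons 3.87% and 4.48% of all probe sets were higher at an unadjusted p under 0.05. Neither of the 2 other flotillin genes listed had a named probe set.

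**Figure D4:**
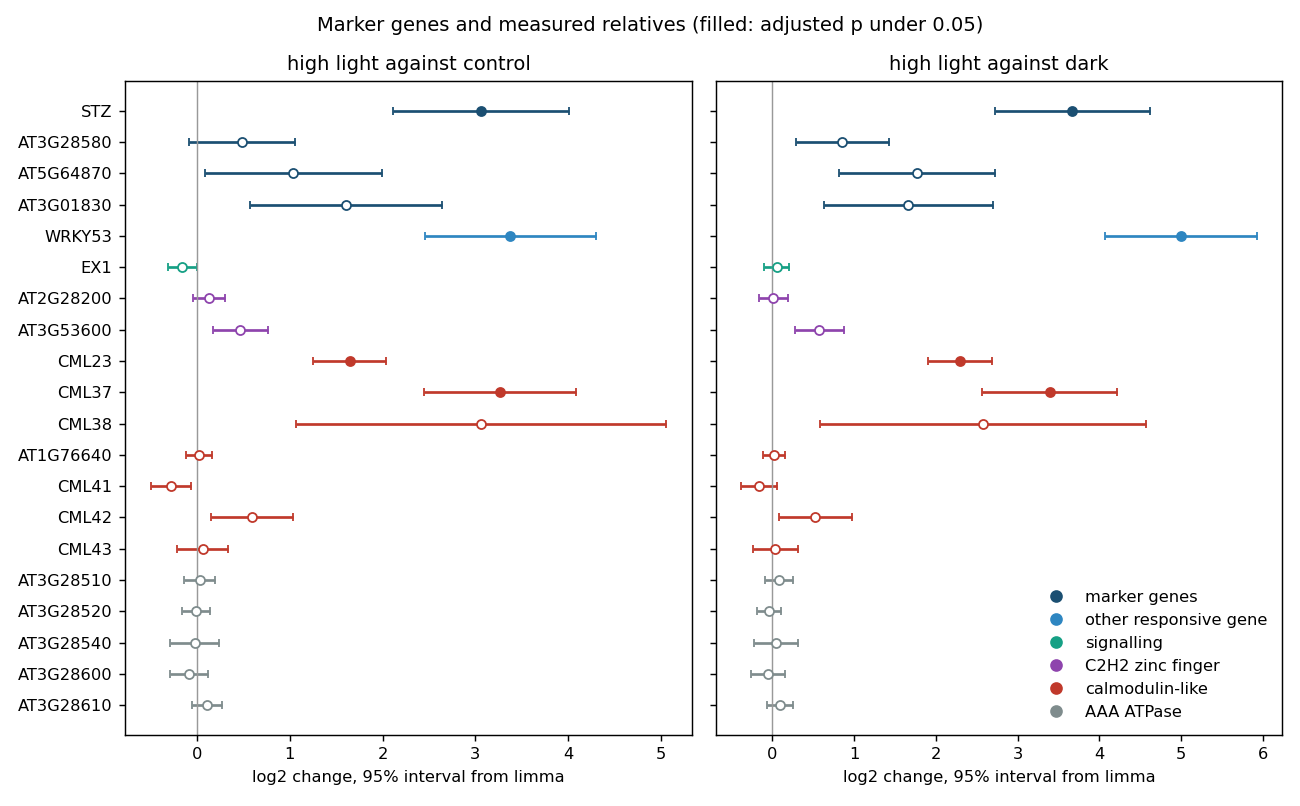
Log2 changes (horizontal axis) with 95% intervals from limma for the 4 genes and their measured relatives, in high light against control and against dark; filled points passed an adjusted p of 0.05. STZ, WRKY53, CML23 and CML37 passed in both comparisons, and the 5 AAA ATPase relatives lie within 0.11 of 0 in both.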

How the data were processed

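The authors deposited 1 log2 expression value per probe set and array, and per the submitters' processing notes the affy package and RMA were used. The sources used here give neither version, nor settings, nor the base of the logarithm, and base 2 was taken from the range of the values. RMA normalises quantiles between arrays, which would hide a change of most transcripts in 1 direction, and it compresses values near the bottom of the scale. The number of arrays limits the precision.

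Of 22810 probe sets, 64 Affymetrix controls were left out of the tests. The annotation gives exactly 1 gene for 13513 and several for 503, and 8730 have no gene there and stay without a name. RefSeq's gene table (TAIR10.1), from which names come, held 13436 of the 13513.

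All comparisons used limma 3.58.1 under R 4.3.3 (lmFit with group means over all 9 arrays, then eBayes, 6 residual and 2.55 prior degrees of freedom). P-values were adjusted by Benjamini-Hochberg over all 22746 probe sets, and "called", "rose" and "fell" mean an adjusted p under 0.05. The fit was tested on simulated data with independent noise and, for each probe set, the same spread in all groups. Shared deviations of same-numbered arrays and unequal spreads, as found here, were not part of that simulation. Same-numbered arrays were checked for pairing: deviations from group means were correlated over all probe sets, with pairing accepted where every pair exceeded 0.1. It was 0.26 to 0.52 in high light against control, so pairing was accepted there, and 1 of 3 pairs fell short in each of the other comparisons (0.0124 in dark against control, -0.0336 in high light against dark).

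The 4 genes and the lists of relatives and markers were chosen with earlier results of these data known. The rule for named genes covers the 4 genes, the 3 single-gene probe sets most correlated with each, called list members, and, where a list had none called, up to 4 of its members; CML38, CML41, CML42, CML43 and AT1G76640 are given beside the called members of their family. Alternatives covered normalisation, centring, filters, the probe sets tested, the variance model, array weights, the replicate block, leaving out single arrays, fitting 2 groups alone, a threshold of 0.01 and, chosen after seeing the data, an RNA quality covariate.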

Additional observations from a re-analysis of the deposited data

How the results depend on the processing

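Of the 4 genes, high light against control called 1, dark against control 0, high light against dark 1 and the 3 groups together 1. These counts became 2, 0, 3 and 2 with array weights and 1, 0, 3 and 2 with the replicate block, and 0 in high light against control at an adjusted p under 0.01. With 1 array left out they ran from 0 to 2, stayed at 0, and ran from 1 to 3 and from 0 to 2. Array weights (0.48 for high light replicate 1) brought in AT3G01830 in high light against control (adjusted p = 0.0311) and AT3G01830 (0.0193) and AT5G64870 (0.0247) in high light against dark. The block brought in AT3G28580 (0.0123) and AT5G64870 (0.043) in high light against dark and AT3G28580 over the 3 groups (0.0319), in comparisons where not every pair of arrays deviated together. In dark against control the blocked fit gave STZ an unadjusted p of 0.005 (adjusted p = 0.714) and AT3G28580 one of 0.0135 (0.833). The causes were not tested. No direction of the 4 genes turned under any alternative run.

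Over all probe sets, the counts in the same order were 114, 0, 204 and 144. With array weights these were 387, 5, 642 and 494, with the block 302, 0, 430 and 349, and with 1 array left out 43 to 575, 0, 76 to 675 and 60 to 542. With only probe sets of 1 gene, which are fewer, they were 49, 0, 108 and 62, and at an adjusted p under 0.01 they were 59, 0, 84 and 72. An intensity trend with robust estimation gave 234 over the 3 groups, and only the arrays of both groups gave 131 in high light against dark. The median correlation between the 4 genes over the arrays was 0.81, and 0.73 to 0.84 with 1 array left out. AT3G01830 is absent from the filter above the median mean, since its own mean lies below it. Values near the bottom of the scale, such as those of AT3G01830 outside high light, limit how large a fall could be seen.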

Other observations

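In control and in dark, the STZ values ran in the same order as the RNA quality index, and in high light they did not. On control replicates 1 to 3, with log2 values of 7.81, 8.76 and 8.996, the 3 prime minus 5 prime difference of the control probe sets was 1.32, 1.64 and 1.78, and on dark replicates 1 to 3, with values of 7.10, 8.05 and 8.60, it was 1.44, 1.69 and 2.01. On high light replicates 1 to 3, with values of 11.21, 11.71 and 11.83, it was 1.68, 1.62 and 1.81. The STZ values also went up from replicate 1 to 3 in each group. With the replicate as a block, the SE of the STZ change in high light against control was 0.15. The index rose with the replicate number in control and in dark, where the 2 cannot be told apart. Which of them goes with the STZ spread was not tested. With this index as a covariate, chosen after seeing the data, the SE of the STZ change in high light against control fell from 0.42 to 0.17, and the change was 2.75 (limma adjusted p = 0.000654). AT3G01830 kept an SE of 0.48 in that fit, with a change of 1.62 (adjusted p = 0.271).

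AT3G28580 and AT5G64870 had log2 changes of 0.38 (SE 0.22, limma adjusted p = 0.643) and 0.88 (SE 0.40, adjusted p = 0.496) in high light against control in the same fit.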
